A study of Homo sapiens with 21 samples.

Results

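The genes described here are 10 targets of the hypoxia-inducible factors (HIFs) outside glycolysis: VEGFA, ADM, EGLN3, KDM3A, P4HA1, BNIP3, PDK1, CA9, NDRG1 and ANKRD37. They were taken by symbol from the deposited table of gene counts, where they are 10 of 19683 genes. All 10 passed the filter on low counts, which left 12345 genes to test. The cells were HepG2/C3A, a clonal human liver tumour line used as a hepatocyte model, labelled wild type in every group, with no drug or gene change named. The control group was a 2D monolayer, and the other groups were 3D spheroids collected on Days 3, 7, 10, 14, 21 and 28, which had been forced to aggregate on low-attachment plates and were then cultured in a rotating vessel (ClinoReactor). Each of the 7 groups had 3 libraries, 21 in all, labelled as biological replicates. Whether these were separate cultures is not stated, so the p-values measure the spread between these libraries. The oxygen in either culture, the density of the monolayer, and the time from the last medium change to harvest are not given in the sources used here.

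Expression was measured by TempO-Seq, a targeted assay in which pairs of short detector oligos are ligated on their transcript and the products are sequenced and counted. A level is given in CPM, the count scaled to the size of its library, as the mean ± SD over the 3 libraries of a group. It can be compared between libraries but not between genes. A gene was called higher or lower at a Benjamini-Hochberg adjusted p under 0.05 in edgeR's quasi-likelihood test across all 12345 genes. The error of a log2 fold change is its SE. The libraries held 18760232 to 43443262 counts, so of the 10 genes counting error weighs most on CA9. In bulk RNA, fewer cells with a transcript and less of it per cell cannot be told apart.

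A HIF is a pair made of an oxygen-regulated alpha subunit, HIF1A or EPAS1, and the stable partner ARNT. With oxygen at hand, the EGLN prolyl hydroxylases mark the alpha subunit for destruction through VHL. When oxygen is scarce the alpha subunit persists and the pair binds short DNA elements at target genes, which act in vessel growth, oxygen sensing, collagen folding, mitochondrial turnover, fuel choice and pH control. In the liver, oxygen falls along the sinusoid from the portal to the central end, and these targets are used as markers of cells short of oxygen.

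All 10 genes are protein coding in GENCODE 29 on GRCh38. On the plus strand are VEGFA at chr6:43770184-43786487, ADM at chr11:10304680-10307397, KDM3A at chr2:86440647-86492716, PDK1 at chr2:172555373-172608669, CA9 at chr9:35673856-35681159 and ANKRD37 at chr4:185396021-185400628. On the minus strand are EGLN3 at chr14:33924231-34462774, P4HA1 at chr10:73007217-73096974, BNIP3 at chr10:131966455-131982013, and NDRG1.

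Promoter windows from 250 bases before to 50 bases after the start (RefSeq, GRCh38.p14) matched 8 of the 10 symbols, all but VEGFA and NDRG1. They were searched on both strands for the core of the HIF-binding element, ACGTG or GCGTG, which read CACGT and CACGC on the opposite strand. A match was present in 7 of the 8 genes, and in 52.4% of the 27305 genes with a window. ACGTG occurred in 5 of the 8, CA9, BNIP3, ANKRD37, P4HA1 and PDK1, and in 24.9% of all genes, whereas GCGTG occurred in 3 of the 8, ADM, BNIP3 and KDM3A, and in 40.6% of all genes. The letters CACGTG, present in the BNIP3 and ANKRD37 windows, match on both strands at once and are also the E-box that other factors bind. The EGLN3 window held neither motif. One match per gene is shown with 12 bases on each side, an ACGTG core where the window has one and the nearest to the start, because these are the letters through which a HIF could bind at the genes whose levels follow. Sequences run 5′ to 3′ on the gene's strand with the motif in capitals, and the position of its first base counts from the start, negative before it.
CA9: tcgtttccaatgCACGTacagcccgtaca (chr9:35673898-35673926, plus strand, position -18)
ADM: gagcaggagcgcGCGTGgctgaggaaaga (chr11:10304960-10304988, plus strand, position -101)
BNIP3: cgcacgcgccgcACGTGccacacgcaccc (chr10:131982040-131982068, minus strand, position -133)
ANKRD37: cagtgtttgtgtACGTGcggccgtggcgg (chr4:185396686-185396714, plus strand, position -143)
KDM3A: ccgggaggctgtGCGTGtcttgtgagagc (chr2:86441333-86441361, plus strand, positions -26 and -116 from its 2 starts)
P4HA1: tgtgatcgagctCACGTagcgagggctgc (chr10:73096936-73096964, minus strand, position -86)
PDK1: cgccacgtccctCACGTaccactcggcag (chr2:172556070-172556098, plus strand, position -8)
A match describes these letters only. Whether a HIF was bound there in these cells was not measured.

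Within the spheroids, most of the 10 genes were highest at Day 10. The highest of the 6 spheroid means fell on Day 10 for 8 of them, against 16.8% of all tested genes, and on Day 28 for VEGFA and P4HA1. The lowest mean fell on Day 21 for 7, against 13.5% of tested genes, and on Day 3 for VEGFA, NDRG1 and KDM3A. For ADM, BNIP3, ANKRD37 and PDK1, the 3 Day 10 libraries lay above the other 15 spheroid libraries, which held for 4.91% of tested genes. All 10 changed among the spheroid days by edgeR's F test, as did 76.2% of tested genes, with adjusted p-values from 6.73e-17 for VEGFA to 0.0107 for P4HA1. Against the monolayer the same genes split, and VEGFA, ADM and KDM3A stood below it on every spheroid day. On single days, 34.8% (Day 28) to 38.4% (Day 7) of tested genes were called lower than the monolayer. The share of tested genes lower on all 6 days was not counted.

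**Figure D1:**
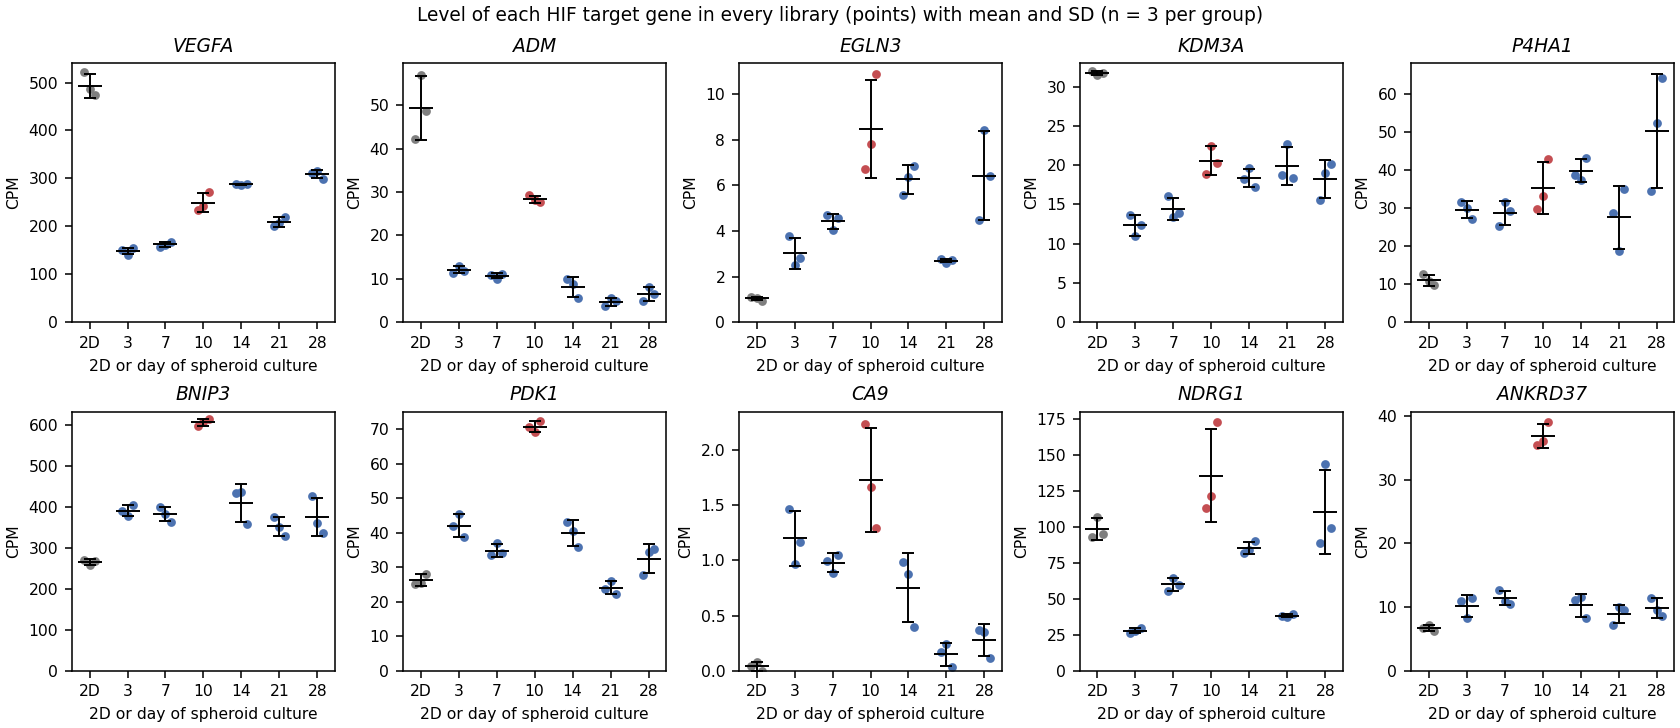
CPM of each of the 10 genes in every library (points), with the group mean (long line) and SD (bars, n = 3), for the monolayer (grey), Day 10 (red) and the other spheroid days (blue). The 3 Day 10 points of BNIP3, PDK1, ANKRD37 and ADM stand above all other spheroid points, while the VEGFA, ADM and KDM3A points of the monolayer stand above all spheroid points.

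The secreted ligands VEGFA and ADM were highest in the monolayer. VEGFA, the growth factor that draws in vessels by acting on endothelial cells, stood at 521, 486 and 473 CPM in the monolayer libraries and at 150.3, 140.4 and 154 CPM at Day 3. The Day 3 spheroids were thus all below the monolayer, by 1.73 ± 0.063 on the log2 scale (a 3.33-fold lower level, adjusted p = 2.24e-22). From there VEGFA climbed with a dip at Day 21. Its libraries read 156, 162 and 168 CPM at Day 7, then 234, 242 and 272 at Day 10, and later 288, 286 and 288 (Day 14), 200.2, 208 and 220.0 (Day 21) and 311, 315 and 299 (Day 28). No 2 groups next to each other in the order of the means overlapped, so the order monolayer, Day 28, Day 14, Day 10, Day 21, Day 7, Day 3 holds library by library. Of the 5 steps between consecutive days, Day 10 against Day 7 was the largest for VEGFA at 0.62 ± 0.062 (adjusted p = 5.5e-09). The smallest called step was Day 14 against Day 10 at 0.20 ± 0.061 (adjusted p = 0.00603), and without Day 10 replicate 1 it was 0.16 ± 0.068 with an adjusted p of 0.0579. Day 28 was still below the monolayer by 0.68 ± 0.061 on the log2 scale (adjusted p = 9.52e-12).

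ADM, the vasodilator peptide adrenomedullin, had the sharpest decline of the 10 below the monolayer and a single peak inside the time course. Its monolayer libraries read 42.3, 57.1 and 48.6 CPM, its Day 7 libraries 10.9, 10.0 and 11.1 and its Day 10 libraries 29.3, 28.1 and 27.7. At Day 14 they read 9.97, 8.84 and 5.47, at Day 21 3.76, 5.61 and 4.79 and at Day 28 4.80, 8.10 and 6.48. Day 10 was above every other spheroid library and below every monolayer library. The rise from Day 7 to Day 10 was 1.41 ± 0.17 on the log2 scale (a 2.65-fold higher level, adjusted p = 7.01e-07). ADM then fell by 1.80 ± 0.17 to Day 14 (adjusted p = 2.24e-09) and by a further 0.78 ± 0.19 to Day 21 (adjusted p = 0.0025), where it was 10.5-fold lower than in the monolayer (adjusted p = 4.34e-15). The difference of 0.48 ± 0.19 between Day 28 and Day 21 was not called (adjusted p = 0.0711). Without Day 21 replicate 2 it was 0.64 ± 0.21 (adjusted p = 0.0320) and without Day 28 replicate 1 it was 0.65 ± 0.18 (adjusted p = 0.00814). With all libraries it was called in DESeq2 (adjusted p = 0.0341), with no filter (0.00571) and with library size as the only scaling (0.0399).

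Probe counts for receptors of the 2 ligands were at or near 0, which does not show that the transcripts are absent, since the glycolytic enzyme TPI1 had only 29 counts in all 21 libraries. The VEGF receptors KDR and FLT4 had no counts in any library and FLT1 had 5 counts in all 21, while the ADM receptor CALCRL had 13, with RAMP3 at 0. The co-receptor NRP1 was measured well, with 66.6 ± 5.00 CPM in the monolayer, 27.7 ± 2.05 at Day 3 and 12.5 ± 0.240 at Day 28, and fell by 0.75 ± 0.089 on the log2 scale from Day 7 to Day 10 (adjusted p = 1.35e-07), the step at which VEGFA rose. Of 9 relatives and receptors of VEGFA, 5 could be tested, and from Day 7 to Day 10 by edgeR 0 were higher, also at an unadjusted p under 0.05, in DESeq2 and in limma voom, and 2 were lower (NRP1 and PGF). Among all tested genes, 13.9% were higher and 13.5% lower at this step. PGF, a placental relative of VEGFA, fell by 0.47 ± 0.075 (adjusted p = 1.18e-05), and VEGFB differed by -0.09 ± 0.073 and was not called (adjusted p = 0.419). The other 2 tested, VEGFD and NRP2, were low in the monolayer, at 1.08 ± 0.236 and 0.109 ± 0.131 CPM, and not called at this step (adjusted p = 0.149 and 0.511). Of 6 relatives and receptors of ADM, 2 could be tested, and at Day 3 the relative ADM2 was lower, with 0.379 ± 0.269 CPM in the monolayer and 0.0233 ± 0.0202 at Day 3, and the receptor subunit RAMP2 was higher by 1.81 ± 0.59 on the log2 scale (adjusted p = 0.00184 and 0.00649), neither being called from Day 7 to Day 10.

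The 3 dioxygenases in the group need oxygen to work, and each had a course of its own. EGLN3, the prolyl hydroxylase that HIFs induce and that in turn marks HIF alpha subunits, was low in the monolayer at 1.10, 1.07 and 0.943 CPM. Its libraries read 3.78, 2.49 and 2.80 at Day 3, 4.69, 4.04 and 4.55 at Day 7 and 6.70, 7.84 and 10.9 at Day 10. Every spheroid library was above every monolayer library, and the Day 10 mean was 8.17-fold higher than the monolayer mean (3.03 ± 0.24 on the log2 scale, adjusted p = 1.94e-13). EGLN3 then read 5.60, 6.36 and 6.84 CPM at Day 14, 2.76, 2.61 and 2.71 at Day 21 and 4.48, 8.42 and 6.40 at Day 28, so that Day 21 formed a trough between higher neighbours. The fall to Day 21 was 1.22 ± 0.21 (adjusted p = 4.4e-05) and the return at Day 28 was 1.27 ± 0.21 (adjusted p = 3.51e-05). The difference of -0.44 ± 0.20 between Day 14 and Day 10 was not called (adjusted p = 0.068), and without Day 10 replicate 1 it was -0.58 ± 0.21 (adjusted p = 0.0289). The adjusted p was 0.0391 in limma voom and 0.0484 with only the groups compared.

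KDM3A, a demethylase that removes methyl groups from lysine 9 of histone H3, was highest in the monolayer, at 31.9, 31.5 and 31.7 CPM. It read 13.6, 11 and 12.4 at Day 3, 16, 13.4 and 13.9 at Day 7 and 18.9, 22.5 and 20.3 at Day 10. The monolayer was above all spheroid libraries, and Day 3 was 2.56-fold lower (adjusted p = 1.26e-12). Its one called step was the rise of 0.51 ± 0.11 from Day 7 to Day 10 (adjusted p = 0.000828). Afterwards it stayed between 18.2 ± 2.41 CPM (Day 28) and 19.9 ± 2.42 CPM (Day 21), and the libraries of Days 10 to 28 overlapped.

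The histone demethylases related to KDM3A were mostly lower at Day 3, and none was called higher at the Day 10 step. Of 9 tested, 7 were lower and 1 was higher at Day 3 than in the monolayer, beside 37.8% and 40.1% of all tested genes. KDM6B, which removes methyl groups from lysine 27 of histone H3, went from 63.1 ± 2.17 to 7.11 ± 0.113 CPM and JMJD1C, a relative of KDM3A, from 345 ± 16.3 to 81.8 ± 5.55. KDM3B, KDM5A, KDM5B, KDM5C and KDM6A fell by 0.48 to 1.12 on the log2 scale, KDM4A was not called, and KDM4D, near the detection limit at 0.292 ± 0.151 CPM in the monolayer, rose by 2.31 ± 0.46 (adjusted p = 3.65e-05). From Day 7 to Day 10, KDM5A, KDM5C and KDM6B fell by 0.36 ± 0.078, 0.24 ± 0.068 and 0.52 ± 0.17 while KDM3A rose, and by edgeR none of the 9 was higher, nor at an unadjusted p under 0.05, in DESeq2 or in limma voom. All tested genes were 13.9% higher and 13.5% lower at that step. From Day 10 to Day 14, 7 of the 9 were higher, beside 24.0% of all tested genes, and KDM3A was not called (-0.17 ± 0.11, adjusted p = 0.229).

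P4HA1, the catalytic subunit of the enzyme that hydroxylates prolines in collagen, was higher than the monolayer on all 6 days. The monolayer libraries read 12.5, 10.9 and 9.69 CPM and the Day 3 libraries 31.6, 30.0 and 27.2, a difference of 1.43 ± 0.24 on the log2 scale (adjusted p = 3.91e-05). It had no peak at Day 10, with 25.3, 31.5 and 29.2 at Day 7, 29.8, 33.3 and 42.9 at Day 10 and 38.9, 37.5 and 43.2 at Day 14, and no step up to Day 21 was called in the fit over all groups. Its libraries were widely spread late in culture, at 28.8, 18.8 and 35.2 CPM on Day 21 and 34.4, 52.5 and 64.2 on Day 28. The Day 28 libraries were higher by 0.88 ± 0.22 (adjusted p = 0.00899) but overlapped those of Day 21, and the adjusted p was 0.0681 when only these 2 groups were fitted. The difference of -0.53 ± 0.22 between Day 21 and Day 14 was not called (adjusted p = 0.0915), and without Day 21 replicate 3 it was -0.74 ± 0.23 (adjusted p = 0.0308). With no filter on low counts the adjusted p was 3.5e-06 for that step and 0.0130 for Day 10 against Day 7 (0.31), which was also called with only the groups compared (adjusted p = 0.0493).

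Among proteins that work beside P4HA1 on collagen, CRTAP and P3H1 were higher at Day 3 than in the monolayer. Of 7 partners 5 could be tested, and 2 were higher and 0 lower at Day 3 by edgeR, the 0 also at an unadjusted p under 0.05, in DESeq2 and in limma voom. At Day 7 the counts were 2 higher and 2 lower. The shares of all tested genes were 40.1% higher and 37.8% lower at Day 3, and 40.4% and 38.4% at Day 7. CRTAP, part of the prolyl 3-hydroxylase complex, rose by 2.17 ± 0.078 (adjusted p = 1.72e-22) and P3H1, its enzyme, by 1.56 ± 0.094 (adjusted p = 2.06e-16). P4HB, the other subunit of the collagen prolyl 4-hydroxylase, differed by 0.34 ± 0.22 and was not called (adjusted p = 0.148), nor was the lysyl hydroxylase PLOD3 (adjusted p = 0.49). PPIB, the third protein of the complex with P3H1 and CRTAP, differed by -0.02 ± 0.074 (adjusted p = 0.813), a value of 0.20 with an adjusted p of 0.0137 when library size was the only scaling. From Day 7 to Day 10, where P4HA1 was not called, P3H1 rose by 0.37 ± 0.088 and PPIB by 0.44 ± 0.075 (adjusted p = 0.0016 and 3.53e-05).

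The mitochondrial genes BNIP3 and PDK1 peaked at Day 10 as ADM did, but lay above the monolayer on most days. BNIP3, a receptor on the outer mitochondrial membrane that directs mitochondria to autophagy, read 272, 257 and 269 CPM in the monolayer and 401, 383 and 365 at Day 7. At Day 10 it read 599, 608 and 614 and at Day 14 435, 438 and 358. Its Day 10 libraries stood above all others, with no overlap. BNIP3 rose by 0.66 ± 0.075 (adjusted p = 5.95e-08) and fell by 0.57 ± 0.075 (adjusted p = 1.16e-07), and Day 28 at 426, 362 and 337 CPM overlapped Day 3 at 389.6, 378 and 406. The fall of 0.22 ± 0.075 from Day 14 to Day 21 (adjusted p = 0.0289) was not called when any of 4 libraries was left out. Its adjusted p was 0.142 without Day 14 replicate 1, 0.125 without Day 14 replicate 2, 0.0549 without Day 21 replicate 2 and 0.142 without Day 21 replicate 3.

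BNIP3L, the closest relative of BNIP3 with the same role, rose with it at Day 10, by 0.70 ± 0.12 (adjusted p = 4.71e-05), from 23.8 ± 1.81 to 38.7 ± 4.15 CPM, but was lower than the monolayer at Day 3 by 0.90 ± 0.12 on the log2 scale. Of 8 other partners of BNIP3, 7 could be tested. From Day 7 to Day 10 by edgeR 0 were higher (1 at an unadjusted p under 0.05, 0 in DESeq2 and in limma voom), and 2 fell, the kinase PINK1 by 0.58 ± 0.07 and the survival protein BCL2L1 by 0.29 ± 0.068, with FUNDC1, BECN1, BCL2 and RHEB not called. The shares of all tested genes at this step were 13.9% higher and 13.5% lower. MAP1LC3B, the autophagosome protein that BNIP3 binds, was 4182 ± 124 CPM in the monolayer, 397 ± 7.72 at Day 7 and 370.3 ± 24 at Day 10, and its step to Day 10 was not called (adjusted p = 0.347).

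PDK1, the kinase that phosphorylates pyruvate dehydrogenase and so slows the burning of pyruvate in the mitochondrion, read 25, 25.3 and 28.2 CPM in the monolayer and 42, 45.4 and 38.8 at Day 3. It was 33.4, 37 and 34.1 at Day 7 and 70.5, 69.2 and 72.5 at Day 10. All Day 10 libraries were above all others, with a rise of 1.02 ± 0.092 from Day 7 (a 2.03-fold higher level, adjusted p = 9.4e-10). PDK1 fell to 43.2, 40.6 and 35.8 CPM at Day 14 and 23.7, 26 and 22.4 at Day 21, by 0.83 ± 0.092 and 0.73 ± 0.094 on the log2 scale (adjusted p = 4.05e-09 and 3.56e-07). The 3 Day 21 libraries lay below the other 15 spheroid libraries, which held for 1.69% of tested genes, and overlapped the monolayer (-0.12 ± 0.095, adjusted p = 0.242). At Day 28 its mean was again above that of the monolayer, with overlapping libraries, by 0.32 ± 0.095 (adjusted p = 0.00366), a value that became 0.53 ± 0.099 with library size as the only scaling. The small fall of 0.27 ± 0.092 from Day 3 to Day 7 (adjusted p = 0.0346) had an adjusted p of 0.0968 without Day 3 replicate 1, 0.202 without Day 3 replicate 2, 0.129 without Day 7 replicate 1 and 0.0918 without Day 7 replicate 3.

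The other pyruvate dehydrogenase kinases were not called at the Day 10 step. PDK3 was 0.790 ± 0.324 CPM in the monolayer and 12 ± 0.893 at Day 3 (3.99 ± 0.20, adjusted p = 1.03e-18) and was 12.2 ± 0.512 at Day 7 and 11.6 ± 1.72 at Day 10 (adjusted p = 0.768). PDK2 rose by 1.84 ± 0.17 at Day 3 (adjusted p = 1.04e-11), was not called at Day 10 (adjusted p = 0.85), and PDK4 had 9 counts in all libraries. The phosphatase PDP1, which reverses the kinases, went the other way, with 30.8 ± 2.00 CPM in the monolayer and 2.38 ± 0.272 at Day 3, where it fell by 3.70 ± 0.17 on the log2 scale (adjusted p = 9.26e-20). Of the subunits of pyruvate dehydrogenase itself, PDHA1 and DLAT rose with PDK1 from Day 7 to Day 10, by 0.21 ± 0.074 and 0.19 ± 0.063 (adjusted p = 0.0352 and 0.0211). PDHB, DLD, PDHX and the regulators PDP2 and PDPR were not called. PDP1 was called lower at this step, so of 10 tested partners of PDK1, 2 were higher and 1 lower. The shares of all tested genes were 13.9% higher and 13.5% lower.

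CA9, the carbonic anhydrase of the cell surface that buffers acid made by hypoxic cells, was near the limit of detection. In the monolayer it had 1, 3 and 0 counts, or 0.0424, 0.0763 and 0.00 CPM, where 0 counts allows up to 0.0976 CPM. The 4 monolayer counts together give 0.0427 CPM with an exact Poisson 95% interval of 0.0116 to 0.109, and the 155 counts of Day 10 give 1.69 CPM with an interval of 1.43 to 1.97. These intervals cover counting error only. The monolayer counts were below the filter's minimum count of 10, so CA9 entered the test through spheroid libraries in which it was higher. Its calls against the monolayer are read with that limit. Spheroid libraries read 1.47, 0.969 and 1.17 CPM at Day 3, 0.996, 0.888 and 1.05 at Day 7, 2.23, 1.66 and 1.29 at Day 10 and 0.988, 0.874 and 0.400 at Day 14. All of these were above all monolayer libraries, by 4.71 ± 0.70 at Day 3 (adjusted p = 2.68e-07) and 5.22 ± 0.68 at Day 10 (adjusted p = 2.64e-08). CA9 then dropped to 0.172, 0.240 and 0.0319 CPM at Day 21 and 0.374, 0.351 and 0.116 at Day 28. The fall from Day 14 to Day 21 was 2.30 ± 0.58 on the log2 scale (adjusted p = 0.00292), and Day 21 overlapped the monolayer (1.74 ± 0.88, adjusted p = 0.0741). Day 28 was above the monolayer by 2.61 ± 0.82 (adjusted p = 0.00535), with no overlap of libraries.

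The Day 10 rise of CA9 was not called, although its Day 10 libraries lay above those of Day 7 (0.81 ± 0.45, adjusted p = 0.192). The fall of 1.18 ± 0.47 from Day 10 to Day 14 (adjusted p = 0.0356) had an adjusted p of 0.136 without Day 10 replicate 1, 0.0661 without Day 10 replicate 2, 0.0530 without Day 14 replicate 2 and 0.178 without Day 14 replicate 3. Its difference at Day 21 from the monolayer was 2.80 ± 1.21 without monolayer replicate 2 (adjusted p = 0.0405) and 2.21 ± 0.86 without Day 21 replicate 3 (adjusted p = 0.0225). Of 10 other carbonic anhydrases and pH regulators 5 could be tested. CA14, another surface carbonic anhydrase, was likewise low in the monolayer at 0.319 ± 0.0987 CPM and read 7.00 ± 0.495 at Day 3, 5.74 ± 0.516 at Day 10 and 1.63 ± 0.347 at Day 28, with no call from Day 7 to Day 10 (adjusted p = 0.373). CA5A, a mitochondrial form found in liver, rose by 2.60 ± 0.19 at Day 3 (adjusted p = 2.74e-14), where CA5B and CA13 fell by 1.40 ± 0.25 and 1.48 ± 0.31.

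NDRG1, a stress-response protein linked to differentiation and to growth arrest, moved at every step of the time course. It read 92.8, 107 and 94.8 CPM in the monolayer, 26.5, 27.5 and 29.6 at Day 3 and 55.3, 64.7 and 59.8 at Day 7. Day 3 was 3.53-fold below the monolayer (adjusted p = 2.13e-08), and Day 7 was between the 2 with no overlap. At Day 10 it read 113, 121 and 173 CPM, at Day 14 81.9, 84 and 89.8, at Day 21 38.3, 37 and 39.7 and at Day 28 88.7, 144 and 99.1. The 5 steps were 1.10 ± 0.16, 1.18 ± 0.16, -0.67 ± 0.16, -1.15 ± 0.16 and 1.53 ± 0.16 on the log2 scale, all called, with adjusted p-values from 3.74e-06 to 0.002. All 3 Day 10 libraries were above the monolayer, by 0.46 ± 0.16 (adjusted p = 0.0129). This was the least secure of its calls against the monolayer, with 0.40 ± 0.18 and an adjusted p of 0.0555 without monolayer replicate 1, and 0.23 ± 0.13 and 0.115 without Day 10 replicate 3. Its relative NDRG2 rose at Day 3 by 3.88 ± 0.23 (adjusted p = 1.23e-16), opposite to NDRG1, and at Day 10 by 0.58 ± 0.16 (adjusted p = 0.00754), alongside it. SGK1, a kinase that phosphorylates NDRG1, rose at Day 3 by 1.67 ± 0.25 (adjusted p = 3.33e-07) and was not called at Day 10, and NDRG3 and NDRG4 were called at neither.

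ANKRD37, a small ankyrin-repeat protein known mainly as a direct HIF target, had the clearest single peak. Its libraries read 6.74, 7.25 and 6.31 CPM in the monolayer, 10.9, 8.27 and 11.3 at Day 3 and 12.7, 11 and 10.5 at Day 7. At Day 10 they read 35.4, 36.1 and 39 and at Day 14 11.1, 11.5 and 8.24, so Day 10 stood alone. The rise was 1.69 ± 0.14 (a 3.23-fold higher level, adjusted p = 1.93e-10) and the fall was 1.84 ± 0.14 (adjusted p = 1.13e-12). Days 3, 7, 14, 21 and 28 had means between 8.89 ± 1.46 and 11.4 ± 1.14 CPM, a modest excess over the monolayer. The excess at Day 21 was 0.39 ± 0.15 with overlapping libraries (adjusted p = 0.0195), and its adjusted p was 0.0587 without monolayer replicate 1, 0.0529 without monolayer replicate 3 and 0.142 without Day 21 replicate 2.

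Set against the monolayer, most of the transcriptome differed in the spheroids, so the counts of the 10 genes are read beside the share of all tested genes. At Day 3, 6 were higher, where 40.1% of tested genes were, and 4 were lower, where 37.8% were. At Day 7 the counts were again 6 higher (40.4% of tested genes) and 4 lower (38.4%), and at Day 10 they were 7 higher (40.0%) and 3 lower (37.9%), NDRG1 having changed sides. At Day 14, 6 were higher (38.7%) and 3 lower (35.7%), at Day 21, 4 were higher (39.3%) and 4 lower (35.1%), and at Day 28, 6 were higher (38.5%) and 3 lower (34.8%). The median log2 fold change of the 10 was 0.57 on Day 3, 1.31 on Day 10, 0.13 on Day 21 and 0.41 on Day 28, where the median of all tested genes was 0.056, 0.053, 0.089 and 0.084. The 6 comparisons share the 3 monolayer libraries. CA9, kept by the filter through its spheroid libraries, is among the higher genes on every day but Day 21. With library size as the only scaling, the median of all genes against the monolayer was higher by 0.14 to 0.22 on the log2 scale, and no called value of the 10 genes changed direction.

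**Figure D2:**
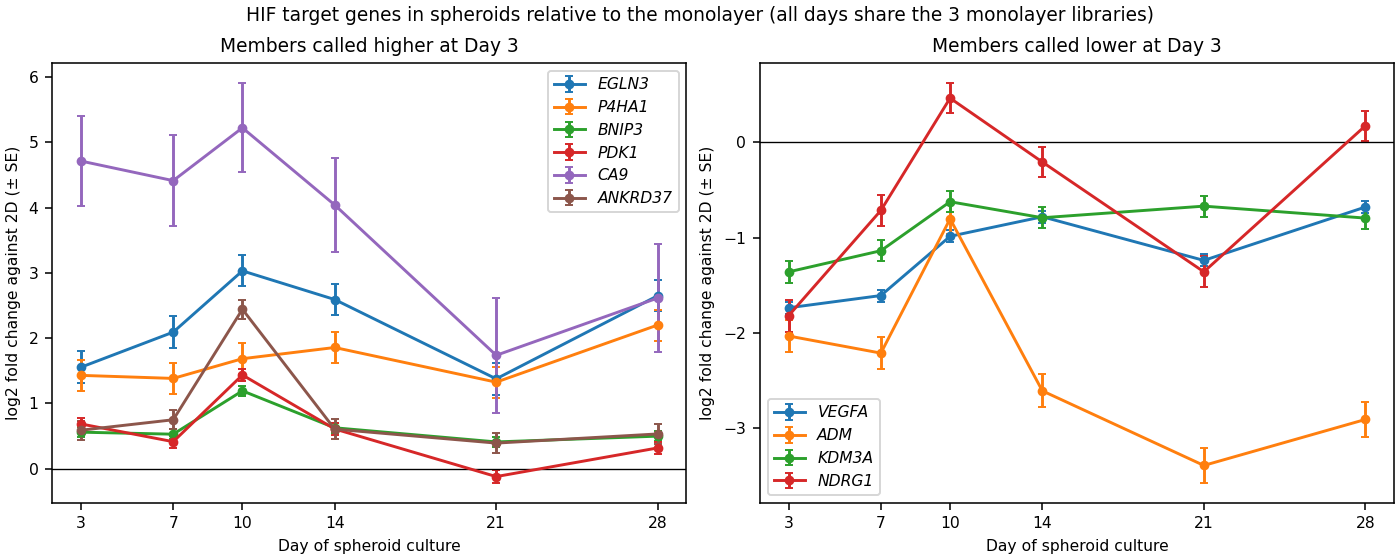
Log2 fold change against the 2D monolayer (± SE, 3 libraries a group) on each spheroid day, for the members called higher (left) or lower (right) at Day 3. CA9 and EGLN3 peak at 5.22 and 3.03 on Day 10, and ADM reaches -3.39 on Day 21. NDRG1 stands at 0.46 on Day 10, -0.21 on Day 14, -1.36 on Day 21 and 0.17 on Day 28.

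Between consecutive spheroid days, far fewer genes were called, and the called members went one way at 3 of the 5 steps. From Day 3 to Day 7 only NDRG1 was higher, where 10.6% of tested genes were, and only PDK1 was lower (8.76%). From Day 7 to Day 10, 8 of the 10 were higher, where 13.9% of tested genes were, and none was lower, where 13.5% were. The exceptions were CA9 and P4HA1, with differences of 0.81 ± 0.45 and 0.30 ± 0.22. The median of the 10 was 0.87, against -0.013 for all tested genes. From Day 10 to Day 14, 6 were lower (24.3% of tested genes), ADM, ANKRD37, CA9, PDK1, NDRG1 and BNIP3, and VEGFA alone was higher (24.0%), a count of 0 without Day 10 replicate 1. From Day 14 to Day 21, 7 were lower (12.7% of tested genes) and none higher (13.9%), and the median of the 10 was -0.63 against 0.0036 for all genes. The 3 without a call were ANKRD37, KDM3A and P4HA1.

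At the last step, from Day 21 to Day 28, 5 of the 10 were higher, where 10.0% of tested genes were, and none was lower (14.0%). They were NDRG1 at 1.53 ± 0.16, EGLN3 at 1.27 ± 0.21, P4HA1 at 0.88 ± 0.22, VEGFA at 0.56 ± 0.062 and PDK1 at 0.44 ± 0.095, and BNIP3, ANKRD37, KDM3A, CA9 and ADM were not called. These counts of 0, by edgeR, were also 0 at an unadjusted p under 0.05, in DESeq2 and in limma voom. Consecutive steps share the libraries of the day between them. The Day 10 count did not depend on 1 library, being 8 higher and 0 lower in every fit that left 1 library out, while the Day 7 against Day 3 counts did: without Day 3 replicate 1 they were 2 higher, EGLN3 being the added gene (0.75 ± 0.24, adjusted p = 0.0355). The count of lower members was 0 without Day 3 replicate 1, Day 3 replicate 2, Day 7 replicate 1 or Day 7 replicate 3.

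**Figure D3:**
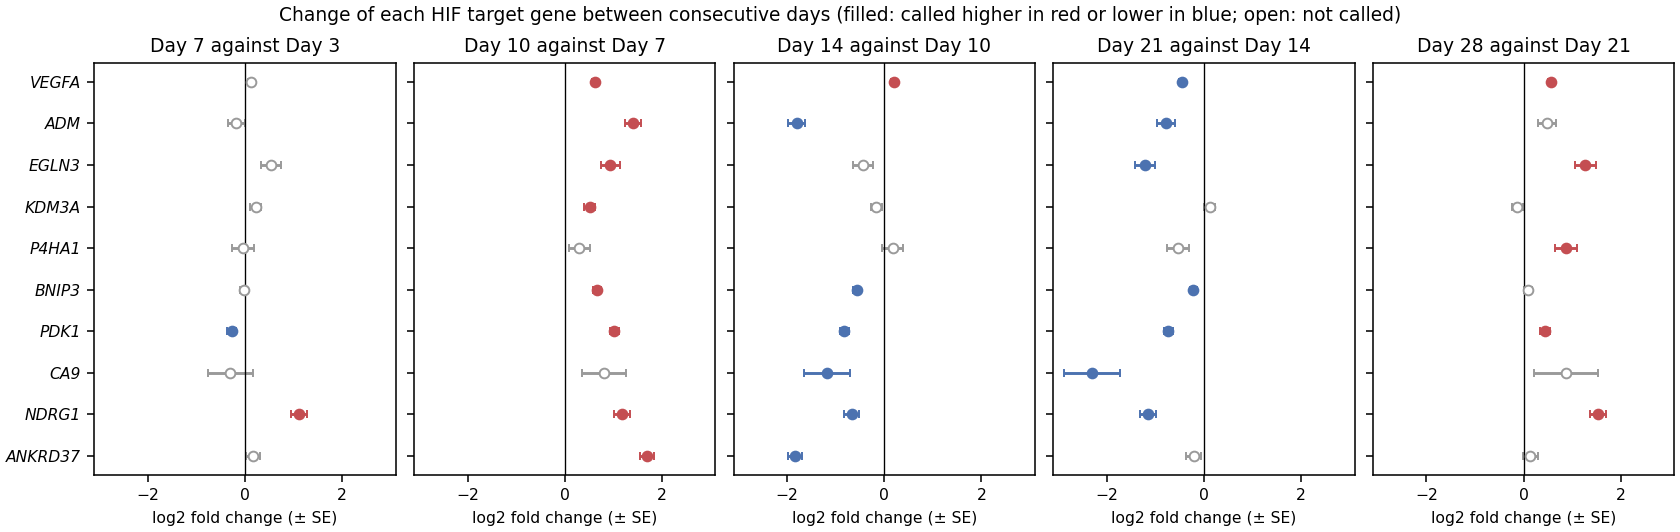
Log2 fold change (± SE) of each member at the 5 steps between consecutive spheroid days, 3 libraries a group, filled where called (red higher, blue lower). The Day 10 against Day 7 panel has 8 red points and no blue, the Day 21 against Day 14 panel 7 blue points and no red.

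Over the whole spheroid culture the members parted again. Day 28 was higher than Day 3 for 5 of the 10 (29.5% of tested genes): NDRG1 by 1.99 ± 0.17, EGLN3 by 1.10 ± 0.21, VEGFA by 1.06 ± 0.062, P4HA1 by 0.77 ± 0.22 and KDM3A by 0.56 ± 0.12. It was lower for 3 (30.2% of tested genes): CA9 by 2.10 ± 0.54, ADM by 0.88 ± 0.18 and PDK1 by 0.37 ± 0.094 on the log2 scale. BNIP3 and ANKRD37 differed by -0.06 ± 0.075 and -0.06 ± 0.15 and were not called. Pooling Days 14, 21 and 28 against Days 3, 7 and 10 gave 3 members higher (34.1% of tested genes) and 5 lower (34.0%). The lower genes, CA9, ADM, ANKRD37, PDK1 and BNIP3, fell by 1.99 ± 0.30, 1.29 ± 0.10, 0.75 ± 0.083, 0.58 ± 0.054 and 0.25 ± 0.043. VEGFA and KDM3A rose by 0.54 ± 0.036 and 0.29 ± 0.066. The other, NDRG1, differed by 0.23 ± 0.093 (adjusted p = 0.0405), and its adjusted p was between 0.0512 and 0.0574 without Day 7 replicate 1, Day 10 replicate 1, Day 10 replicate 2, Day 14 replicate 3 or Day 21 replicate 3, 0.0543 in limma voom and 0.0589 with only the groups compared. P4HA1, at 0.30 ± 0.13 (adjusted p = 0.0512), was not called in the full fit. It was called with RLE factors (adjusted p = 0.0493), with no filter (1.77e-07) and in DESeq2 (0.0311). It was also called with 1 library left out, with adjusted p-values from 0.00494 without Day 21 replicate 2 to 0.0493 without Day 14 replicate 1, and between these without Day 3 replicate 1, Day 7 replicate 2, Day 10 replicate 3 or Day 28 replicate 1.

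The courses of the 10 genes were compared by correlating log2 CPM means over the 6 spheroid days, as a description of 6 points that share libraries between genes. BNIP3 and ANKRD37 had r = 0.98, ADM and PDK1 0.96, and BNIP3 and PDK1 0.94, which are the genes of the single Day 10 peak. NDRG1 and EGLN3 had r = 0.96 and shared the Day 21 trough with a return at Day 28, and VEGFA and P4HA1 had 0.83. These are not separate classes: VEGFA and NDRG1 had 0.79, EGLN3 and P4HA1 0.72, and BNIP3 and EGLN3 0.70. The value was 0.083 for VEGFA and PDK1 and -0.16 for VEGFA and ADM. Including the monolayer, which makes 7 group means, the gene most like VEGFA was the hexokinase HK2 (r = 0.99), out of 4124 genes that reached 10 CPM on average and whose group means ranged over at least 1 on the log2 scale. The gene most like ANKRD37 was BNIP3 (r = 0.94), followed by the collagen lysyl hydroxylase PLOD2 (0.93) and PDK1 (0.90), and PLOD2 also came first for PDK1 (0.93). For EGLN3 the lysyl oxidase LOX came second (0.94) after the mitochondrial import gene MTX2 (0.95), and for ADM CMC2 (0.99), HSP90AA1 (0.98) and the enolase ENO2 (0.98) came first. For NDRG1 no gene came above CHMP2B at 0.82. The genes most like CA9, KDM3A, P4HA1 and BNIP3 were CHMP2A (0.99), DRAP1 (0.99), EEF2KMT (0.99) and PSIP1 (0.98). These values describe 7 points in the same 21 libraries.

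The transcripts of the HIF subunits were not higher at Day 10 than at Day 7. HIF1A was 58.6 ± 1.57 CPM in the monolayer, 48.6 ± 3.93 at Day 7, 42.6 ± 2.63 at Day 10 and 39 ± 1.68 at Day 28. Its Day 10 mean was the second lowest of the 7, it was not called at Day 3 (adjusted p = 0.457), and the step from Day 7 was not called (-0.19 ± 0.083, adjusted p = 0.0843). EPAS1, the alpha subunit also called HIF2A, was 67.9 ± 3.40 in the monolayer and 34.4 ± 0.373 at Day 3, where it fell by 0.98 ± 0.097 on the log2 scale (adjusted p = 5.15e-11), and its step to Day 10 was not called (adjusted p = 0.324). ARNT fell by 0.77 ± 0.078 at Day 3 (adjusted p = 9.56e-11) and by 0.42 ± 0.078 from Day 7 to Day 10 (adjusted p = 0.000133). Since HIF control acts mostly on the alpha proteins, these transcript levels say nothing of HIF protein, which was not measured.

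Among the enzymes and cofactors that limit HIF, CITED2 peaked at Day 10 as well. CITED2, itself a HIF target that competes with HIF for the coactivators EP300 and CREBBP, was 1.08 ± 0.426 CPM in the monolayer, 5.05 ± 0.527 at Day 7, 12.7 ± 0.780 at Day 10 and 3.24 ± 0.857 at Day 14. It rose by 1.33 ± 0.21 (adjusted p = 1.11e-05) and fell by 1.97 ± 0.22 (adjusted p = 3.61e-09). The main HIF prolyl hydroxylase EGLN1, also a HIF target, rose by 0.36 ± 0.12 at Day 10 (adjusted p = 0.0234) and fell by 0.49 ± 0.12 at Day 14 (adjusted p = 0.001). EGLN2 was 87.7 ± 1.77 CPM in the monolayer and 34.7 ± 2.79 at Day 3, with no call from Day 7 to Day 10 (adjusted p = 0.247), and HIF1AN, the asparagine hydroxylase, was not called at Day 3 or at Day 10 (adjusted p = 0.194 and 0.696). VHL had its lowest mean at Day 10 (3.68 ± 0.490 CPM), with no call from Day 7, and its highest at Day 28 (7.67 ± 0.460). Its rise of 0.75 ± 0.16 from Day 10 to Day 14 was called (adjusted p = 0.00023). Over the 19 oxygen-sensing genes, 17 of which could be tested, 2 were higher and 9 lower at Day 3 than in the monolayer (40.1% and 37.8% of all tested genes), and 4 were higher and 2 lower at Day 10 than at Day 7 (13.9% and 13.5%). The calls at Day 10 not named so far were the rises of ELOC, a partner of VHL, by 0.39 ± 0.067 and of the chaperone HSP90AA1 by 0.63 ± 0.054, and the fall of EP300 by 0.36 ± 0.097. At Day 3, ELOB rose by 1.31 ± 0.086 and SIAH1, CREBBP, HSP90AA1, ELOC and EP300 fell, by 1.80 ± 0.13 for SIAH1 and 0.35 ± 0.096 for EP300. CUL2, RBX1 and SIAH2 were called at neither.

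**Figure D4:**
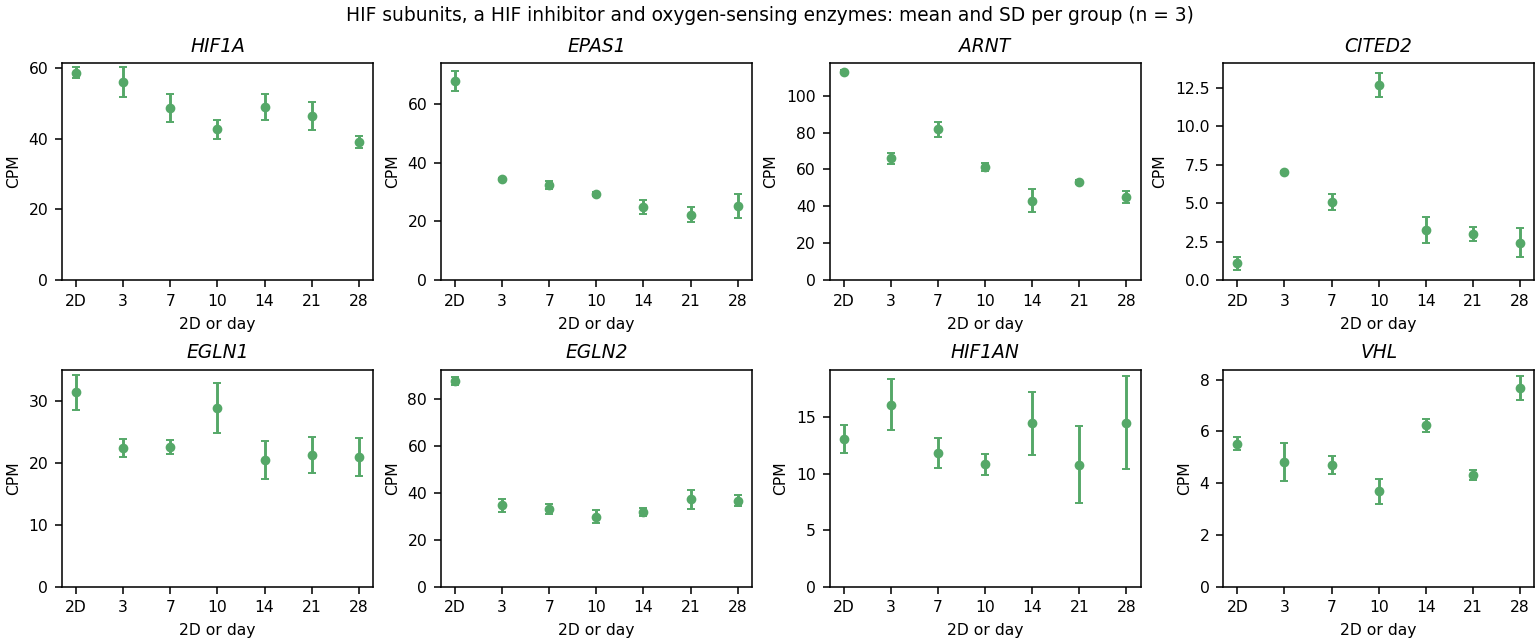
CPM (mean and SD, n = 3 libraries) of the HIF subunits HIF1A, EPAS1 and ARNT, the inhibitor CITED2, the hydroxylases EGLN1, EGLN2 and HIF1AN, and VHL, in the monolayer and on each spheroid day. CITED2 has its highest mean, 12.7, at Day 10. The means of HIF1A, 42.6, and VHL, 3.68, are low there, but neither was called from Day 7 to Day 10.

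Other known HIF targets changed at the same steps, in both directions. Of 46 further targets outside the glycolytic list 43 could be tested. From Day 3 to Day 7, 9 were higher and 4 lower, with a median of 0.062, beside 10.6% and 8.76% of all tested genes. From Day 7 to Day 10, 20 were higher and 2 lower, with a median of 0.33, beside 13.9% and 13.5% of all tested genes. From Day 10 to Day 14, 11 were higher and 21 lower (median -0.47; 24.0% and 24.3% of all tested genes), from Day 14 to Day 21, 6 were higher and 13 lower (-0.26; 13.9% and 12.7%), and from Day 21 to Day 28, 15 were higher and 5 lower (0.18; 10.0% and 14.0%). At Day 3 against the monolayer, 14 were higher and 21 lower, with a median of -0.19, beside 40.1% and 37.8% of all tested genes. The glycolytic targets, from glucose transporters to lactate export, were called mostly in one direction at each step: of 17 tested, 13 were higher and 0 lower from Day 7 to Day 10, 1 was higher and 13 lower from Day 10 to Day 14, and 0 were higher and 11 lower from Day 14 to Day 21. At the step from Day 3 to Day 7, 0 of the 17 were higher and 9 lower, where the 10 members had 1 higher and 1 lower. These glycolytic counts of 0, by edgeR, were 0 at an unadjusted p under 0.05, in DESeq2 and in limma voom. LDHA, the lactate dehydrogenase that turns pyruvate into lactate, read 412 ± 23 CPM at Day 7, 858 ± 32.1 at Day 10 and 347 ± 40.2 at Day 14, log2 differences of 1.06 ± 0.076 and -1.30 ± 0.076 (adjusted p = 1.33e-11 and 1.88e-15). From Day 21 to Day 28, 5 of the glycolytic genes were higher and 1 lower. On Days 14 to 28, 2 were higher and 15 lower than on Days 3 to 10 (34.1% and 34.0% of all tested genes).

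**Figure D5:**
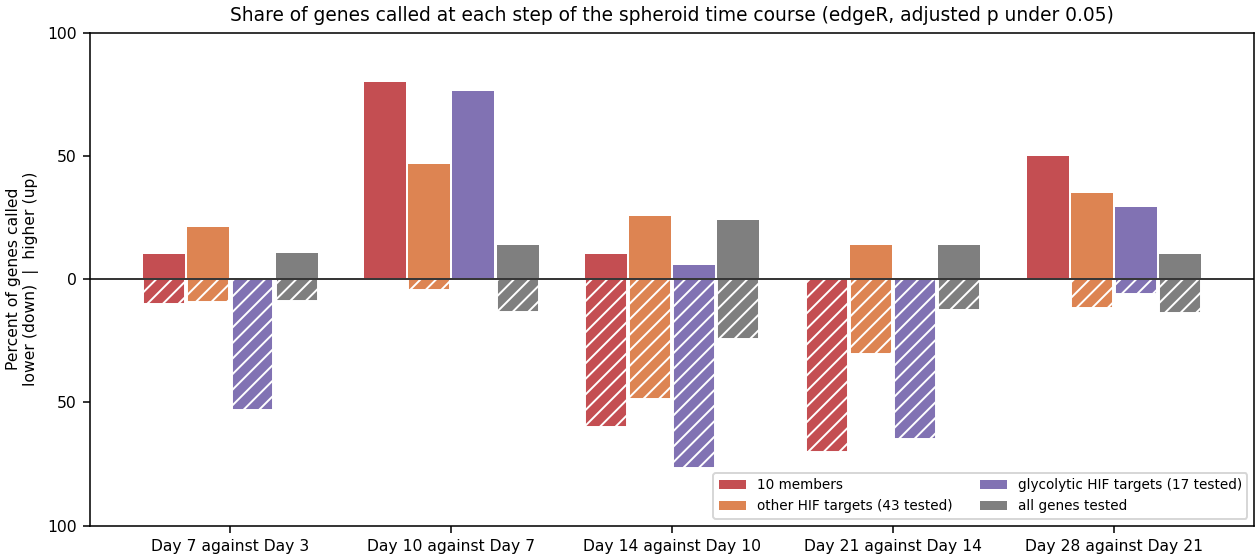
Percent of genes called higher (up, plain) or lower (down, hatched) at each step between spheroid days, for the 10 members, the other HIF targets, the glycolytic HIF targets and all tested genes. At Day 10 against Day 7 the plain bars of the 3 HIF lists stand above the 13.9% of all tested genes, and at Day 21 against Day 14 their hatched bars stand beyond the 12.7% of all genes.

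The largest movers among those 46 targets took several routes. The named genes are the 3 largest called rises and falls of a comparison, and for the steps between days they were chosen after their values were seen. PFKFB3, which makes the sugar phosphate that activates glycolysis, the growth factor binding protein IGFBP1 and LOX, which cross-links collagen, led the rise from Day 7 to Day 10, at 2.32 ± 0.27, 1.77 ± 0.079 and 1.54 ± 0.12, while only the scaffold AKAP12 and the lipoprotein receptor VLDLR were lower, at -0.51 ± 0.14 and -0.23 ± 0.079. LOX read 10.4 ± 2.55 CPM in the monolayer, 123 ± 9.98 at Day 7, 358 ± 20.5 at Day 10 and 104 ± 18.8 at Day 21. PFKFB4, a relative of PFKFB3, at -2.50 ± 0.15, the repressor BHLHE40 at -1.76 ± 0.17 and PFKFB3 at -1.74 ± 0.26 led the fall to Day 14, a step at which IGFBP1, STC2 and VLDLR rose by 2.29 ± 0.08, 2.04 ± 0.24 and 1.91 ± 0.078. From Day 14 to Day 21, IGFBP1 and AKAP12 were among the 3 largest falls and KDM4C, PLOD1 and FAM162A led the rise. From Day 21 to Day 28, IGFBP1 and STC2 were among the 3 largest rises, with FAM162A, INSIG2 and KDM4C leading the fall.

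Against the monolayer the same list held larger differences of both signs. At Day 3 the glycogen-targeting subunit PPP1R3C, LOX and the mitochondrial adenylate kinase AK4 led the rise, at 3.85 ± 0.17, 3.64 ± 0.14 and 2.75 ± 0.078, and AKAP12, IGFBP1 and the glycogen-branching enzyme GBE1 led the fall, at -3.57 ± 0.14, -3.47 ± 0.084 and -2.81 ± 0.065. At Day 28 LOX, PPP1R3C and STC2 led the rise and GBE1, AKAP12 and BHLHE40 the fall. IGFBP1, a secreted liver protein, read 2089 ± 144 CPM in the monolayer, 189 ± 4.19 at Day 3, 732 ± 64.8 at Day 10 and 4900 ± 183 at Day 28. Its Day 28 level was thus above that of the monolayer, unlike that of VEGFA. On Days 14 to 28 against Days 3 to 10, IGFBP1, VLDLR and STC2 led the rise and PFKFB4, BHLHE40 and PPP1R3C the fall.

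The cells carried hepatocyte markers in all groups, and these moved as well. The summed level of 10 such markers ranged from 10617 to 11425 CPM over the monolayer libraries, 50656 to 52505 at Day 3, 66920 to 74779 at Day 7, 63351 to 65329 at Day 10, 42398 to 48939 at Day 14, 41818 to 46369 at Day 21 and 37570 to 46461 at Day 28. Of the 10, 9 were higher and 1 lower at Day 3 than in the monolayer (40.1% and 37.8% of all tested genes). At Day 10, 1 was higher and 2 lower than at Day 7 (13.9% and 13.5%). Of 6 fibroblast markers, COL1A1, COL1A2 and DCN were at 0 in all libraries and the sum was at most 0.229 CPM in the monolayer and 2.03 to 3.29 CPM at Day 10, its highest group. Of 6 endothelial markers, EMCN and STAB2 were at 0 and the sum was at most 1.16 CPM. The leukocyte marker PTPRC was at 0 throughout, and the sum of the 6 immune markers ran from 65.2 to 70.8 CPM in the monolayer libraries and from 82.2 to 270.2 CPM in the spheroid libraries, with 233.4 to 270.2 at Day 7 and 204.6 to 215.6 at Day 10. Of these 6, 4 could be tested, and they split against the monolayer. At Day 7, 3 were higher and 1 lower (40.4% and 38.4% of all tested genes), and at Day 28, 2 were higher and 2 lower (38.5% and 34.8%). The part of hepatocyte and immune marker changes in the levels of the 10 genes was not tested.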

How the data were processed

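Gene expression was measured by TempO-Seq in 21 libraries of HepG2/C3A cells. The deposited values are unnormalised counts, 1 row a gene, in a single table from the authors. Per the submitters' processing notes, the tools involved included STAR 2.7.10b, fastp 0.23.2, bcl2fastq 2.20.422 and DESeq2 1.38.0, with GRCh38.p13 as the build; the sources used here do not say which tool made the table or how the probes of a gene were combined. Libraries were grouped by their titles.

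Counts were analysed in R 4.3.3 with edgeR 4.0.16 (TMM scaling, genes kept by filterByExpr with a minimum count of 10, robust quasi-likelihood fit over all 7 groups, 14 residual degrees of freedom, Benjamini-Hochberg adjustment over 12345 genes). All groups share 1 estimate of the spread per gene. The scripts were tested on simulated counts. Alternatives were RLE factors, library size only, no filter, DESeq2 1.42.0, limma 3.58.1 voom, only the groups compared, the replicate number as a block, and each library left out. Libraries of a group differed by 5.68 to 29.7 times their sampling noise (chi-square per degree of freedom), so none was a copy. Same-numbered libraries deviated together only weakly (median r = 0.015, against -0.0068 for differently numbered pairs), and replicate numbers entered only as an alternative block.

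The 10 genes and all lists were chosen with earlier results of these data known. All 10 are named, as are tested genes of the oxygen-sensing and partner lists where described, the 3 largest called rises and falls among other targets above 5 CPM, and the 3 genes most like a member. Some genes that this rule would name are not reported here.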

Additional observations from a re-analysis of the deposited data

Results flagged for a closer look

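NDRG1 stood out because its differences from the monolayer had opposite signs on neighbouring spheroid days, both called. It was lower at Day 7, at -0.71 ± 0.16, and higher at Day 10, at 0.46 ± 0.16 on the log2 scale (edgeR adjusted p = 0.000597 and 0.0129). At Day 21 it was lower again, at -1.36 ± 0.16 (edgeR adjusted p = 8.26e-07), and Days 14 and 28 were not called. The contrast of Day 10 with Day 7 itself was 1.18 ± 0.16 (edgeR adjusted p = 3.72e-05), and all 3 Day 10 libraries were above all 3 Day 7 libraries. Without Day 10 replicate 3, the Day 10 difference from the monolayer was 0.23 ± 0.13 (edgeR adjusted p = 0.115). The difference between the days does not use the monolayer.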

How the results depend on the processing

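Of 1807 values of single genes under the alternatives, 1750 kept their side of the threshold, 27 lost their call, 30 gained one and 0 called values reversed. The direction of values called in neither fit was not compared. Of 386 counts of members, 7 moved by over 1.5 times. With only the groups compared, Day 7 against Day 3 had 3 members higher in place of 1, VEGFA (0.14, adjusted p = 0.0289) and EGLN3 (0.55, adjusted p = 0.0362) being added. With each library left out in turn, that step had 1 to 2 members higher and 0 to 1 lower, Day 14 against Day 10 had 0 to 1 higher and 5 to 6 lower, Day 10 against Day 7 had 8 higher and 0 lower, Day 21 against Day 14 had 6 to 7 lower, and Day 28 against Day 21 had 5 to 6 higher. NDRG1 at Day 10 against the monolayer had an adjusted p of 0.0508 with only the groups compared. The cause of these changes was not tested.

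The fit with the replicate number as a block changed 1 call of a member, ADM at Day 28 against Day 21 (0.47, adjusted p = 0.0499). In the check of pairing, the deviations of 63 same-numbered pairs of libraries correlated at -0.060 to 0.099. For 12 of 21 libraries the best correlation was with a library of the same number, although most libraries compared had another number. The median was 0.015 for same-numbered pairs and -0.0068 for differently numbered ones. Over all tested genes, Day 7 against Day 3 had 1312 higher and 1081 lower, against 1065 and 1637 with library size as the only scaling and 1835 and 1765 with only the groups compared. Day 28 against Day 21 had 1240 higher and 1724 lower, against 1661 and 1324 with library size only and 877 and 988 with only the groups compared. Low counts limit CA9, whose SE against the monolayer was 0.68 to 0.88.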
